A study of Homo sapiens with 8 samples.

Results

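A transcript can be cleaved and polyadenylated at several places, and the choice between a proximal and a distal poly(A) site sets how long its 3′ UTR is. HNRNPC is a nuclear protein that binds U runs in RNA and is known to affect the use of nearby splice and poly(A) sites, and PABPC4 is a poly(A)-binding protein. Where the alternative sites lie close together, a switch changes a short stretch of 3′ UTR and often nothing of the coding sequence.

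The pairs described here are those in which both poly(A) sites are named by a genome position, in place of a transcript, and lie less than 1000 nt apart. There were 361 such pairs in 294 genes, of 4692 pairs in 2639 genes listed in all 3 tables of comparisons. The rule used positions alone and no measured shift.

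RNA 3′ ends were sequenced in 8 samples of the MDA-MB-231 line, derived from a human triple-negative breast cancer, with 2 replicates in each of 4 groups. Every cell carried CRISPR interference (a dead Cas9 fused to a repressor, which lowers transcription of the gene a guide targets) and a pair of guides. Control cells had non-targeting guides only, HNRNPC knockdown (KD) cells had a guide to HNRNPC and a non-targeting one, PABPC4 KD cells had a guide to PABPC4 and a non-targeting one, and double KD cells had a guide to each gene. The 3 comparisons set each KD against the same control libraries. The tables hold 1 fitted value per pair and no value per library, so no replicate spread can be given, total depth is unknown, and every p-value and interval below covers counting error of the summed libraries only. HNRNPC and PABPC4 themselves are not listed in the tables, so their depletion was not checked here. The table taken as PABPC4 KD carries a name that mixes both targets and was assigned by elimination.

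The members hold 649 distinct sites, 190 pairs on the plus strand and 171 on the minus strand, across 23 chromosomes. Of the genes, 292 are annotated as protein-coding in Gencode release 44. The exceptions are LINC02693, a long non-coding RNA, and MTND5P11, a processed pseudogene whose sequence also exists in mitochondrial DNA, so that its reads are of uncertain origin. The distance between the sites ran from 192 to 996 nt, with a median of 568 nt and quartiles of 450 and 783 nt. It did not spread evenly over that range. Only 5 pairs were under 400 nt apart, with distances up to 323 nt, and the next closest were 401 nt apart. Of the 356 pairs from there on, 85 lay under 450 nt. A smallest distance between listed sites is not given in the sources used here, and what it would remove was not tested.

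The pairs nearest to the limit of 1000 nt were those of RXRA (a retinoid receptor, 996 nt), RNF2 (990 nt) and NAA15 (984 nt) inside it, and AZIN1 (1002 nt), STX6 (1015 nt) and SEPHS1 (1018 nt) outside it. All 6 had p above 0.01 in each table. In 359 of 361 pairs the site called distal lay downstream on the listed strand. Both exceptions were pairs of NIPA2, in which the names proximal and distal run against the strand as listed.

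Most genes had 1 member pair (245 genes), 34 had 2, 12 had 3 and 3 had 4. Such pairs share sites and are not independent, and 49 sites were the distal site of 1 pair and the proximal site of another. In 183 genes a transcript-named site was listed as well, so the member pair was only part of what the gene's sites can do. The chromosome and strand of each of the 649 sites matched those of its gene, but only 75 sites lay inside their gene on hg38. The positions are therefore of another build that the tables do not name, and they are given as deposited. No sequence was read at them, and exon, intron or UTR was not assigned.

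**Figure D1:**
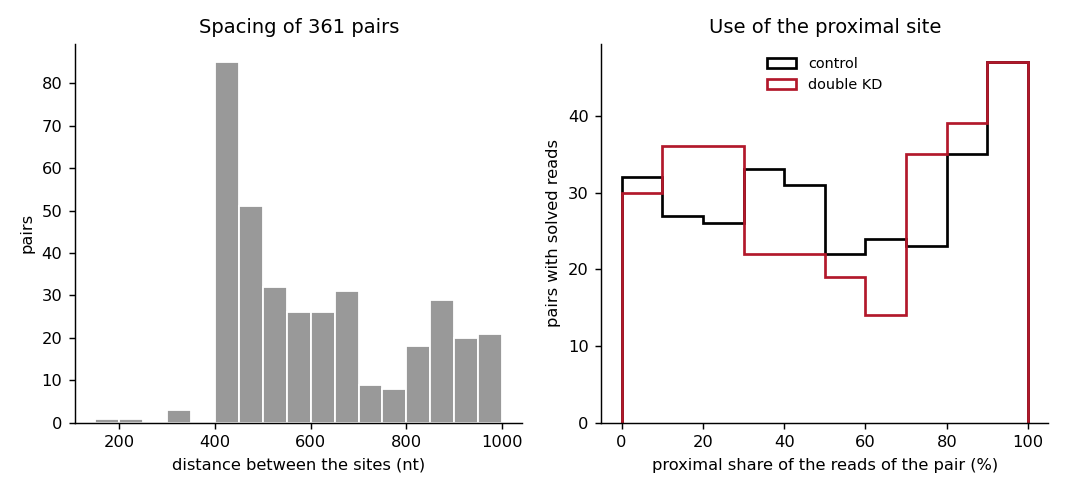
Left, number of pairs by the distance between their sites in bins of 50 nt. Only 5 pairs lie under 400 nt, and the tallest bin, with 85 pairs, starts there. Right, number of the 300 pairs with solved reads by the share of the pair's reads at the proximal site (%, bins of 10), in control (black) and double KD (red). Both outlines span the whole range from near 0 to near 100%.

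How the close sites were used was read from the normalised reads per site, which can be solved from the errors of the tables at genes with 3 or more shared sites (both replicates of a group summed). This gave reads for 300 of the 361 pairs. In control the proximal site took a median of 50% of the reads of a pair, with quartiles of 26.0 and 82.6%. It was the more used site in 151 of 300 pairs, took under 10% in 32 and over 90% in 47. The median was 51.2% in HNRNPC KD, 50.2% for PABPC4 KD and 50.8% for double KD, nearly the same in every group. Over all 2722 pairs with reads the control median was 44.2%. The reads themselves were few: the median pair had 28.5 reads in control at both sites together.

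To find which close pairs switched, each KD was set against control by logAPAR, which compares the proximal-to-distal ratio of reads in KD with that in control on a natural log scale; a negative value is a shift to the distal site, which lengthens the 3′ UTR where both sites lie in it. A pair was called at p 0.01 in the authors' deposited table. In HNRNPC KD 5 member pairs were called (1.39%), where 2.49% of all 4692 pairs were. In PABPC4 KD 2 were called (0.554%), against 0.916% of all pairs, and in double KD 15 (4.16%), against 5.88%. The members thus had a lower share of calls than all pairs in each table, a difference that was not tested. At an adjusted p of 0.05, 3 member pairs remained in HNRNPC KD, 0 for PABPC4 KD and 11 for double KD, where the shares of all pairs were 0.512%, 0.0213% and 3.07%. In PABPC4 KD 15 member pairs (4.16%) had an unadjusted p under 0.05, beside 4.60% of all pairs.

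Position-named pairs 1000 nt or more apart, the most similar kind, had nearly the same shares as the members: 1.37% in HNRNPC KD, 0.455% for PABPC4 KD and 3.79% for double KD. Pairs of 2 transcript ends had 3.46%, 1.78% and 8.33%. The median Wald standard error of logAPAR differed in parallel. In double KD it was 0.761 for the members, 0.755 for the distant position-named pairs and 0.605 for pairs of transcript ends. At its median error a member pair needed an absolute logAPAR of 2.07 in HNRNPC KD, 2.05 for PABPC4 KD and 1.96 for double KD to be called, a change in the ratio of the sites of 7.90-fold, 7.77-fold and 7.10-fold. The part of depth in these shares was not tested.

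In HNRNPC KD all 5 called member pairs were shifted to the distal site, where 1.34% of all pairs were called in that direction. In double KD 9 of the 15 called member pairs were shifted to the distal site and 6 to the proximal site. Over all pairs it was 158 and 118 of 276 calls, or 3.37% and 2.51% of all pairs. With p 0.05 as the threshold, 14 of 25 member pairs in HNRNPC KD and 18 of 32 in double KD were distal shifts, beside 182 of 370 and 308 of 554 over all pairs. Of all pairs 7.89% passed that threshold in HNRNPC KD and 11.8% in double KD. The median logAPAR over the 361 pairs was −0.0545 in HNRNPC KD, −0.00907 for PABPC4 KD and −0.0160 for double KD, beside −0.00394, 0.00528 and −0.0104 over all pairs. Of the 361 values, 192 were negative in HNRNPC KD and 182 in each of the other tables. A few close pairs therefore switched, while the pairs as a whole lay evenly about 0.

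**Figure D2:**
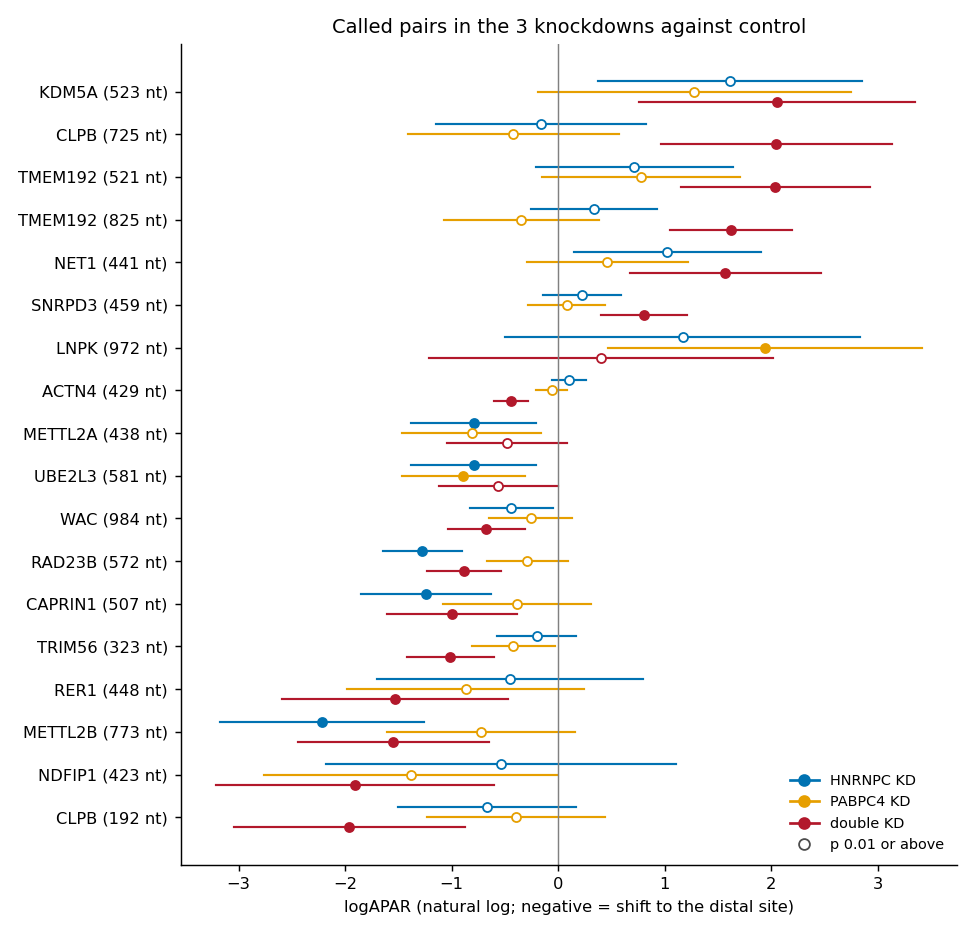
logAPAR of the 18 pairs called in any table (x axis, natural log; negative is a shift to the distal site), with 95% Wald intervals from counting error, for HNRNPC KD (blue), PABPC4 KD (orange) and double KD (red). Filled points have p below 0.01. Of the filled blue points all 5 lie left of 0, and the filled red points lie on both sides.

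The close pair with the smallest p in HNRNPC KD was that of RAD23B (ENSG00000119318, chromosome 9, 107283137 to 107332192 on hg38, plus strand), which encodes a receptor that brings ubiquitylated proteins to the proteasome. Its sites are listed at 110092753 and 110093325 of chromosome 9, 572 nt apart. The proximal site had 157 reads in control, 82.5 in HNRNPC KD, 114 for PABPC4 KD and 123 for double KD. The distal site had 89.7, 169, 87.0 and 171 reads in the same order. Distal reads were thus higher in both groups with an HNRNPC guide (1.88-fold in HNRNPC KD and 1.90-fold in double KD) and level in PABPC4 KD, and the proximal share fell from 63.6% to 32.9% in HNRNPC KD and 41.9% in double KD. In the authors' deposited table its logAPAR came to −1.27 in HNRNPC KD (Wald interval −1.64 to −0.905, p 1.38e-11, adjusted p 2.02e-08). It was −0.289 for PABPC4 KD (p 0.137) and −0.885 for double KD (p 6.12e-07, adjusted p 8.78e-05).

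CAPRIN1 (ENSG00000135387, chromosome 11, 34051731 to 34102610, plus strand), an RNA-binding protein of stress granules, moved in the same tables by another route. Its proximal site held nearly all reads, with 567 in control, 449 in HNRNPC KD, 486 for PABPC4 KD and 545 for double KD. The distal site 507 nt downstream rose from 14.8 reads in control to 40.7 in HNRNPC KD and 38.5 in double KD, with 18.7 in PABPC4 KD. The switch was therefore a 2.75-fold gain of a minor site that took 2.5% of the gene's reads in control. In the authors' deposited table its logAPAR came to −1.24 in HNRNPC KD (p 6.13e-05, adjusted p 0.0180), −0.387 for PABPC4 KD (p 0.274) and −0.994 for double KD (p 0.00142, adjusted p 0.0583).

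METTL2A and METTL2B encode near-identical tRNA methyltransferases, so reads may be split between the copies and both values are uncertain. At METTL2B (ENSG00000165055, chromosome 7, 128476729 to 128506602, sites 773 nt apart) the proximal site had 27.2, 8.94, 19.1 and 13.1 reads in control, HNRNPC KD, PABPC4 KD and double KD, and the distal site 14.9, 45.1, 21.5 and 33.8. Both sites moved in opposite directions, with logAPAR of −2.22 in HNRNPC KD (p 5.42e-06, adjusted p 0.00265) and −1.55 in double KD (p 0.000720, adjusted p 0.0353). They held only 2.25% and 1.24% of the gene's control reads. At METTL2A (ENSG00000087995, chromosome 17, 62423875 to 62453385, 438 nt) the distal site had 31.3 reads in control, 56.3 in HNRNPC KD and 57.3 in double KD. Its logAPAR was −0.793 in HNRNPC KD (p 0.00836, adjusted p 0.442), −0.811 for PABPC4 KD (p 0.0145) and −0.481 for double KD (p 0.0965). Without both genes 3 member pairs were called in HNRNPC KD and 14 in double KD.

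UBE2L3 (ENSG00000185651, chromosome 22, 21549447 to 21624034, 581 nt), a ubiquitin-conjugating enzyme, was called in both single KDs. The proximal site had 54.8 reads in control and 35.8 in HNRNPC KD, 37.0 for PABPC4 KD and 50.1 for double KD, and the distal site had 38.4, 55.5, 63.4 and 61.6. All 3 KD groups lay above control at the distal site. In the authors' deposited table its logAPAR came to −0.793 (p 0.00826, adjusted p 0.442), −0.892 (p 0.00251, adjusted p 0.951) and −0.562 (p 0.0477). The 3 values share their control, and in the differences between KDs, where it cancels, UBE2L3 gave 0.330 for double KD minus PABPC4 KD (p 0.420) and 0.231 for double KD minus HNRNPC KD (p 0.575).

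The other call in PABPC4 KD was LNPK (ENSG00000144320, chromosome 2, 175923882 to 176002839, 972 nt), which shapes the endoplasmic reticulum. Its proximal site had 3.62 reads in control, 3.62 in HNRNPC KD, 8.07 for PABPC4 KD and 3.35 for double KD. Its distal site had 24.9, 7.70, 7.95 and 15.4, so distal reads were alike in both single KDs (0.31 and 0.32 of control). With so few reads the logAPAR of 1.94 in PABPC4 KD had an interval of 0.468 to 3.42 (p 0.00983, adjusted p 0.951). In double KD it was 0.403 (p 0.625). None of the close pairs passed an adjusted p of 0.05 in the authors' deposited PABPC4 KD table, made with APAlog.

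**Figure D3:**
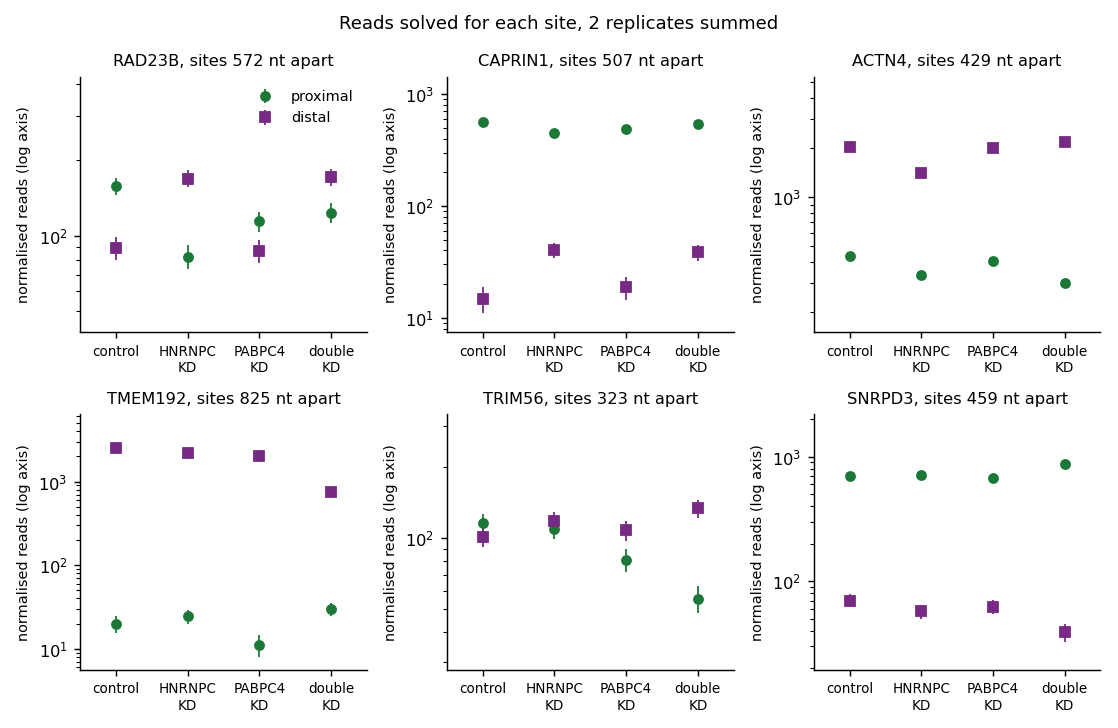
Normalised reads solved for the proximal (green circles) and distal (purple squares) site of 6 called pairs, both replicates of a group summed, on log axes; bars are the square root of the reads (counting error). RAD23B and CAPRIN1 gain distal reads in both groups with HNRNPC KD, TMEM192 loses distal reads in double KD (748 against 2534 in control), and TRIM56 loses proximal reads there.

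Of the 15 calls in double KD (4.16%, beside 5.88% of all pairs), 12 in 10 genes were not called in either single KD. The matching count over all pairs was not made. A pair not called in a single KD may still shift there: WAC and NET1, described below, had the same sign in HNRNPC KD with an unadjusted p under 0.05. TMEM192, a protein of the lysosomal membrane (ENSG00000170088, chromosome 4, 165070608 to 165208549, minus strand), had a pair of these 12 calls, with 1 distal site in common. That site took 98.3% of the gene's control reads and had 2534 reads in control, 2223 in HNRNPC KD, 2015 for PABPC4 KD and 748 for double KD. The upstream site 825 nt away had 19.96, 24.5, 11.3 and 29.8 reads, and the one 521 nt away 7.05, 12.6, 12.2 and 16.0. Double KD thus stood apart by the loss of the main site, to 0.295 of control, while the upstream sites remained minor, with 3.84% and 2.09% of the reads of their pairs. The logAPAR in the authors' deposited double KD table was 1.62 (p 2.71e-08, adjusted p 6.49e-06) at 825 nt and 2.04 (p 6.96e-06, adjusted p 0.000775) at 521 nt. In bulk RNA, fewer cells with a transcript and less RNA per cell cannot be told apart, and the summed reads of the gene's sites went from 2577 in control to 817 in double KD. The pair of the 2 upstream sites, 304 nt apart, had a logAPAR of −0.416 (p 0.437).

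ACTN4 (ENSG00000130402, chromosome 19, 38647649 to 38731589, plus strand), which crosslinks actin filaments, was the pair with the smallest error. Its proximal site had 440 reads in control, 336 in HNRNPC KD, 407 for PABPC4 KD and 299.9 for double KD, and the distal site 429 nt downstream 2024, 1396, 1989 and 2148. In HNRNPC KD both sites were lower alike, whereas in double KD the proximal site alone was lower (0.681 of control). In the authors' deposited table its logAPAR came to 0.0999 in HNRNPC KD (interval −0.0577 to 0.257), −0.0621 for PABPC4 KD (−0.210 to 0.0862) and −0.444 for double KD (−0.603 to −0.285, p 4.32e-08, adjusted p 9.31e-06). The shift is small, from 17.9% to 12.2% of proximal reads, and its call rests on the depth of the pair.

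TRIM56 (ENSG00000169871, chromosome 7, 101085481 to 101097967, 323 nt), a ubiquitin ligase of innate immune signalling, also shifted to the distal site. Proximal reads were 116 in control, 110 in HNRNPC KD, 80.9 for PABPC4 KD and 55.4 for double KD, and distal reads 102, 118, 108 and 134. The proximal share fell from 53.2% to 29.3% in double KD, with a logAPAR of −1.01 (p 1.39e-06, adjusted p 0.000170). WAC (ENSG00000095787, chromosome 10, 28532493 to 28623112, 984 nt), an adaptor in histone H2B ubiquitylation, gained distal reads, with 55.4 in control, 70.3 in HNRNPC KD, 65.3 for PABPC4 KD and 113 for double KD. Its proximal reads were level (297 and 308 in control and double KD), and its logAPAR was −0.438 in HNRNPC KD (p 0.0281), −0.259 for PABPC4 KD (p 0.197) and −0.675 for double KD (p 0.000230, adjusted p 0.0146).

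SNRPD3 (ENSG00000100028, chromosome 22, 24555958 to 24582052, 459 nt), a core protein of the spliceosomal snRNPs, shifted the other way. Its proximal site, which held 87.8% of the gene's reads, had 694 reads in control and 870 in double KD, and the distal site 70.0 and 39.1. The logAPAR was 0.225 in HNRNPC KD (p 0.225), 0.0788 for PABPC4 KD (p 0.666) and 0.809 for double KD (p 8.68e-05, adjusted p 0.00642). NET1 (ENSG00000173848, chromosome 10, 5412557 to 5459056, 441 nt), a guanine nucleotide exchange factor, lists only these sites, so its reads could not be solved. Its logAPAR was 1.03 in HNRNPC KD (p 0.0220), 0.463 for PABPC4 KD (p 0.228) and 1.57 for double KD (p 0.000615, adjusted p 0.0318), and its error requires at least 4.75 reads at each site.

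CLPB, a chaperone of the mitochondrial intermembrane space (ENSG00000162129, chromosome 11, 72285495 to 72434680, minus strand), gave calls of opposite sign from 1 site. The site at 72000773 had 41.4 reads in control, 36.6 in HNRNPC KD, 44.7 for PABPC4 KD and 7.52 for double KD. Its upstream neighbour 725 nt away had 11.5 and 16.2 reads in control and double KD, and its downstream neighbour 192 nt away, the closest pair of all, 12.01 and 15.5. The middle site alone was lost, which reads as a proximal shift in the pair 725 nt apart (logAPAR 2.05, p 0.000210, adjusted p 0.0134) and as a distal shift in the pair 192 nt apart (−1.96, p 0.000389, adjusted p 0.0215). Both calls therefore describe 1 change at 1 site, and a single sign does not give the direction of 3′ UTR change here.

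The last calls in double KD, outside the rule for named genes and named after their values were seen, had few reads at 1 or both sites. KDM5A, a histone H3K4 demethylase (523 nt), had 10.8, 18.3, 8.52 and 22.7 proximal reads in control, HNRNPC KD, PABPC4 KD and double KD. Its distal reads were 15.7, 5.29, 3.44 and 4.21 in that order, lower in all 3 KDs (double KD logAPAR 2.06, p 0.00186, adjusted p 0.0708). NDFIP1, an adaptor of NEDD4-type ubiquitin ligases (423 nt), had 2.69, 3.13, 9.07 and 16.2 distal reads in the same order. Its proximal reads were 198, 134, 167 and 176 (double KD logAPAR −1.91, p 0.00421, adjusted p 0.133). RER1, which returns proteins from the Golgi to the endoplasmic reticulum (448 nt), had 121, 80.1, 92.6 and 70.3 proximal reads. Its distal reads were 5.07, 5.3, 9.28 and 13.6 (double KD logAPAR −1.53, p 0.00473, adjusted p 0.144). In double KD the 2 sites of each gene moved in opposite directions. Whether these changes are particular to double KD was not tested.

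Over the 14 double KD calls with reads, the distal site changed more than the proximal site in 11, and the sites moved in opposite directions in 13. The exception was WAC, where both rose. Among the calls of HNRNPC KD the sites moved in opposite directions in 5 of 5. Called pairs were chosen for a change in the ratio of their sites, which itself favours opposite moves. No matching count was made over pairs that were not called. The calls of TMEM192 share a site, as do those of CLPB, so the 14 are not independent. For scale, the median change over the 527 member sites with reads was 0.917-fold in HNRNPC KD, 0.979-fold for PABPC4 KD and 1.08-fold for double KD, close to the 0.914-fold, 0.994-fold and 1.08-fold of all 2243 sites with reads. In double KD the called pairs had a median of 232 control reads at both sites, with a range of 26.6 to 2554, where the 286 pairs that were not called had a median of 27.4.

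**Figure D4:**
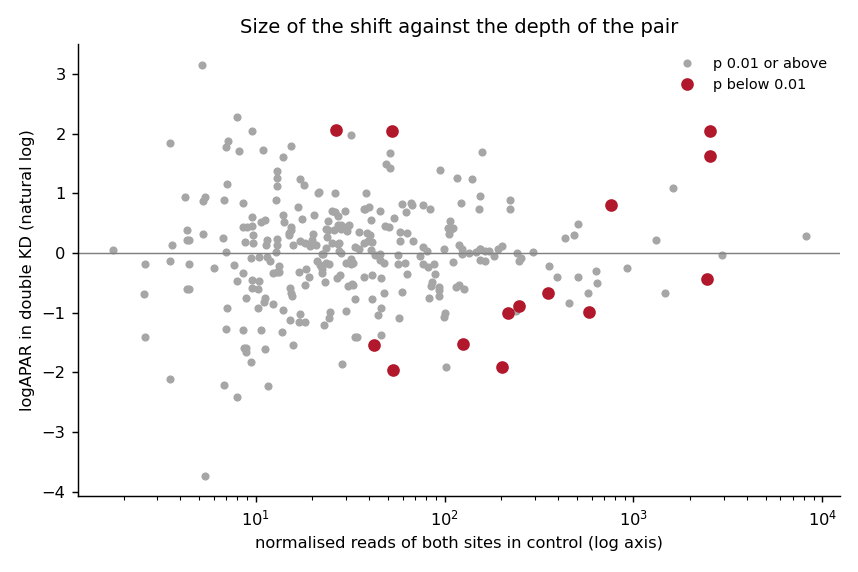
logAPAR in double KD (y axis, natural log) of the 300 member pairs with solved reads against the normalised reads of both sites in control (log axis). Red points have p below 0.01. Values fan out to the left, where pairs have few reads, and no pair with fewer than 26.6 reads was called.

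Other pairs with small errors were not called. RPL13, a protein of the large ribosomal subunit (403 nt), had 2607 proximal and 330.0 distal reads in control and 2520.5 and 329 in double KD. Its logAPAR was −0.133 in HNRNPC KD (interval −0.295 to 0.0289), 0.0424 for PABPC4 KD (−0.123 to 0.208) and −0.0313 for double KD (−0.194 to 0.131). RPL13 has processed pseudogene copies that can share reads. FOXP1, a forkhead transcription factor (455 nt), had a logAPAR of −0.244 in double KD, with an interval of −0.671 to 0.182. NUCKS1, a nuclear DNA-binding protein (859 nt), had −0.408 (−0.769 to −0.0459, p 0.0272). Of these, RPL13 bounds a shift in double KD most tightly.

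PHLDA1, RAB18 and SMURF2 had 4 member pairs each, and none of their 12 pairs was called, where 7.48% of all pairs were called in at least 1 table. So few pairs, several of which share sites, do not set these genes apart from all pairs. At PHLDA1, a pleckstrin homology-like protein, 1 site held nearly all reads (8130 in control and 9277 in double KD), and its pair 412 nt away had a logAPAR of 0.626 in HNRNPC KD (p 0.0176), 0.274 for PABPC4 KD and 0.278 for double KD. At RAB18, a small GTPase of lipid droplets and the endoplasmic reticulum, the pair 676 nt apart had 17.3 and 27.9 proximal and 30.9 and 19.7 distal reads in control and HNRNPC KD, with a logAPAR of 0.927 there (p 0.0275). At SMURF2, a ubiquitin ligase, the site common to 3 of its pairs had 1.76 reads in control and 0.866 in double KD, and its values say little. POLH, a translesion DNA polymerase and the second closest pair (210 nt), had 87.8 and 30.2 proximal and 12.01 and 3.84 distal reads in control and double KD. Both of its sites were lower in double KD, and its logAPAR was 0.0723 (p 0.908).

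PDLIM5 (ENSG00000163110, chromosome 4, 94451857 to 94668227), a scaffold of the actin cytoskeleton that the study singles out, has 1 member pair, with sites at 95586055 and 95586949. The proximal site had 1444 reads in control, 1153 in HNRNPC KD, 1249 for PABPC4 KD and 396 for double KD, and the distal one 17.7, 9.87, 10.8 and 9.53. Both sites of the pair were lower in double KD, and the logAPAR was 0.360 in HNRNPC KD (p 0.367), 0.354 for PABPC4 KD (p 0.363) and −0.675 for double KD (interval −1.47 to 0.120, p 0.0961). The close pair of PDLIM5 therefore did not pass the threshold in any table. The study reports a proximal-to-distal switch of PDLIM5 in HNRNPC-depleted cells, seen by 3′-end sequencing and by PCR specific to each isoform. Whether the sites of that switch are those of this pair was not checked. The other genes that the study singles out have no member pair.

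Genes were also grouped by function, in 10 lists that cover 101 of the 294 genes. The list of cleavage and polyadenylation factors held 5 pairs of CPSF6, NUDT21, PCF11 and ZC3H14, the last a poly(A)-binding protein and not a cleavage factor. Of these 0 were called in any table, where 7.48% of all pairs were. An unadjusted p under 0.05 in any of the deposited APAlog tables was found in 0, where 18.4% of all pairs had one. So few pairs do not set the list apart from all pairs. CPSF6 and NUDT21 are subunits of a complex that promotes distal site use. In double KD the logAPAR was 0.718 at CPSF6 (p 0.324), 0.392 at NUDT21 (p 0.550), 0.611 at PCF11 (p 0.371), and 0.333 and 0.385 at ZC3H14. All 5 values were positive in double KD, and every interval included 0. In HNRNPC KD 1 of the 5 was negative (−0.462), and in PABPC4 KD 2 were (lowest −1.28). The reads of the CPSF6 pair were not solved, and its error in double KD sets only a lower bound of 1.89 reads at each site. Its interval there ran from −0.708 to 2.14, so a large shift could go unseen.

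The ubiquitin and proteasome list was the largest, with 30 pairs of 20 genes. UBE2L3 was called as a distal shift in HNRNPC KD and PABPC4 KD and TRIM56 in double KD, and the list's median logAPAR was 0.183, 0.138 and −0.0997 in HNRNPC KD, PABPC4 KD and double KD. Of 14 pairs of RNA-binding and splicing proteins, SNRPD3 was called in double KD, toward the proximal site. The 9 pairs of cytoskeleton, adhesion and matrix genes held the distal call of ACTN4 in double KD, and the 18 pairs of chromatin and transcription genes the proximal call of KDM5A. Vesicle trafficking genes had 17 pairs, 0 of them called, where 7.48% of all pairs were called in at least 1 table, and 3 with an unadjusted p under 0.05 in any of the APAlog tables, where 18.4% of all pairs had one. The list had medians of −0.374, −0.345 and −0.544 and 11 negative values of 17 in each table. The tables share their control, and over all pairs 50.2% of values were negative in HNRNPC KD, 49.7% for PABPC4 KD and 50.7% for double KD. No pair was called among 18 of kinases, phosphatases and small GTPases, 7 of transporters, 4 of ribosomal proteins and translation factors and 4 of mitochondrial proteins. An unadjusted p under 0.05 was found in 1 pair of the first of these lists and in 0 of the others. The lists go by gene symbol, and CLPB is in none of them.

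Shifts of HNRNPC KD were also followed between groups that both carried a guide to PABPC4, as double KD minus PABPC4 KD. The control cancels there, and the libraries are other ones than those behind the HNRNPC KD values. Of the 5 member pairs called in HNRNPC KD, 3 kept their direction. These were RAD23B (−0.596, p 0.0235), METTL2B (−0.824, p 0.199) and CAPRIN1 (−0.607, p 0.197). Each was smaller in size than in HNRNPC KD, but the pairs were chosen by their p there, and the difference in size was not tested. METTL2A and UBE2L3 had values of 0.330 each, toward the proximal site (p 0.453 and 0.420). Over all pairs 92 of 117 calls moved in the same direction (78.6%). At p 0.05 it was 15 of 25 member pairs, and 259 of 370 pairs in all.

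**Figure D5:**
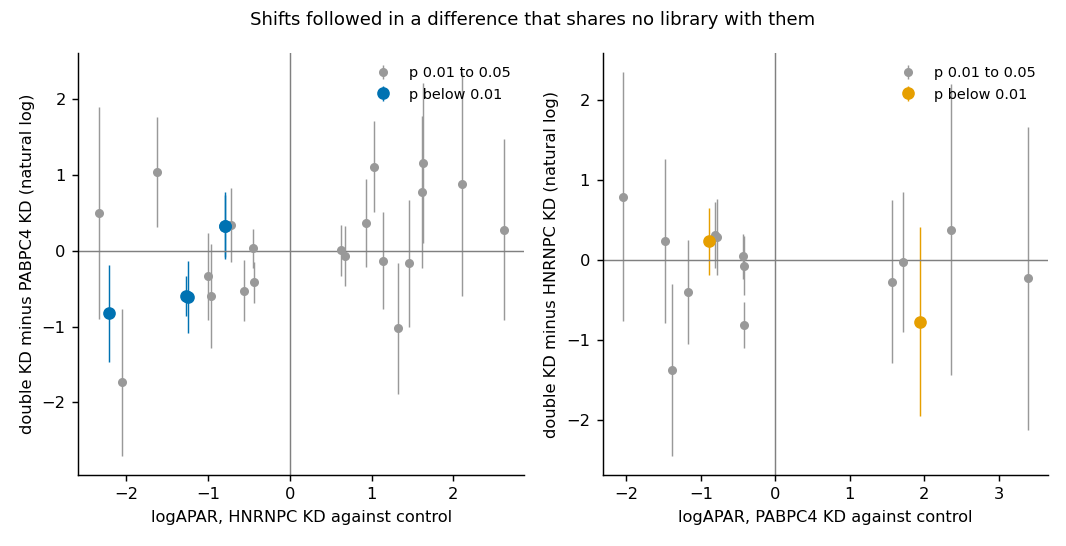
Left, member pairs with p below 0.05 in HNRNPC KD, by their logAPAR there (x axis) and double KD minus PABPC4 KD (y axis, natural log). Bars are 1 standard error, an upper bound of counting error only. Right, the same for PABPC4 KD and double KD minus HNRNPC KD. Large coloured points have p below 0.01. On the left 3 of the 5 coloured points lie in the lower left, and on the right neither of the 2 has the same sign on both axes.

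For PABPC4 KD the matching difference was double KD minus HNRNPC KD. Of its 2 calls 0 moved in the same direction (UBE2L3 by 0.231, LNPK by −0.768, p 0.517), beside 24 of 43 over all pairs. At p 0.05 it was 5 of 15 member pairs and 120 of 216 pairs in all. Whether the close pairs differ from all pairs in this was not tested.

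The differences between the KDs were also tested pair by pair, with an error that adds the Wald variances. It bounds the counting error from above, but holds no spread between replicates, so the true error may be larger. In double KD minus PABPC4 KD 5 member pairs passed p 0.01 (1.39%, beside 1.90% of all pairs), and 1 passed an adjusted p of 0.05 (0.554% of all pairs). These were TMEM192 at 825 nt (1.97, p 3.31e-05, adjusted p 0.0103), ACTN4 (−0.382, p 0.000576), CLPB at 725 nt (2.47, p 0.000985), CORO2A (2.83, p 0.00538) and SNRPD3 (0.730, p 0.00796). Past TMEM192 the adjusted p-values ran from 0.0795 for ACTN4 to 0.450 for SNRPD3. CORO2A, a coronin of the actin cytoskeleton (ENSG00000106789, chromosome 9, 98120975 to 98192637, 648 nt), had 8.81, 4.81, 1.66 and 7.42 proximal and 108, 78.4, 98.1 and 26.0 distal reads in control, HNRNPC KD, PABPC4 KD and double KD. Its distal site was lower in double KD, and its proximal site had its lowest value in PABPC4 KD.

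In double KD minus HNRNPC KD 4 member pairs passed p 0.01 (1.11%, beside 1.56% of all pairs) and 1 an adjusted p of 0.05 (0.469% of all pairs). They were ACTN4 (−0.544, p 1.90e-06, adjusted p 0.00112), TMEM192 at 825 nt (1.29, p 0.00228), CLPB at 725 nt (2.21, p 0.00315) and TRIM56 (−0.810, p 0.00417). The adjusted p-values were 0.246 for TMEM192, 0.286 for CLPB and 0.343 for TRIM56. TMEM192, ACTN4 and CLPB thus passed an unadjusted p of 0.01 between double KD and each single KD. Double KD was last set against the sum of both single KDs. Here 4 member pairs passed p 0.01 (1.11%, beside 1.04% of all pairs) and 0 an adjusted p of 0.05 (0.0639% of all pairs), and 13 (3.60%) had an unadjusted p under 0.05, beside 3.37% of all pairs.

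Where reads were solved, the error can be taken from the reads. It leaves out the control in the differences between KDs and counts it once in the departure from the sum. At p 0.01 it gave 12 of 300 member pairs in double KD minus PABPC4 KD, beside 5.58% of all pairs with reads, 7 in double KD minus HNRNPC KD, beside 3.56%, and 7 in the departure from the sum, beside 2.31%. At an adjusted p of 0.05 these were 5, 5 and 1 of 300, beside 2.20%, 1.40% and 0.367% of all pairs with reads. The 1 pair that departed from the sum was ACTN4 (adjusted p 0.0127 with this error, 0.205 with the upper bound). RAD23B differed in double KD minus PABPC4 KD with this error (p 0.00127, adjusted p 0.0550), as it did not with the upper bound (p 0.0235).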

How the data were processed

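RNA 3′ ends of 8 MDA-MB-231 samples were sequenced by the authors with QuantSeq REV, which primes on the poly(A) tail. Oligo(dT) can also prime inside A-rich transcripts, and no molecular identifiers are described for these libraries, so reads are not independent molecules. The authors describe counting reads at distinct Gencode v33 transcript ends with Salmon 0.14.1 and normalising them. Where the position-named sites, whose positions are not those of hg38, come from is not given in the sources used here. APAlog, a multinomial logistic regression over the sites of a gene, was then fitted. The deposited values are natural log fold changes (logAPAR) with a raw p-value and a Benjamini-Hochberg q-value for each pair. These are the authors' own comparisons; no other values were given, and 0 columns of per-sample values were left unused. Recomputed q-values differed from the deposited ones by at most 7.04e-14.

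Members were found by position in the pairs shared by the 3 tables. The Wald error was recovered from logAPAR and p. Reads per site were solved by least squares at 678 of 681 genes with 3 or more shared sites (2243 sites), with a site's variance equal to the sum of the inverses of its control and KD reads. A natural log gave the better fit at 678 of 681 genes, compared with log2, and the stated sign at 681. The median misfit of the log variance was 5.7e-05, with no term for spread between replicates, and total depth is unknown. A normal-theory Wald test (two-sided) was run on differences between tables over all 4692 pairs, with Benjamini-Hochberg adjustment over all of them. The steps were tested on simulated data. Python 3.11.15, numpy 2.4.6, scipy 1.17.1, pandas 2.3.3 and matplotlib 3.10.9 were used.

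Named pairs were up to 12 calls per table and 6 per difference by smallest p, the 10 with the smallest summed error (1 of them is not reported here), the 3 closest, the 3 on each side of the limit, the genes with the most pairs, and pairs of the study's singled-out genes and of the cleavage and polyadenylation list. The members, lists and tests were chosen with earlier results of these data known. Alternatives were an adjusted p of 0.05, p 0.001 or 0.05, a limit of 500 nt, 1 pair per gene, an absolute logAPAR of at most 5, pairs below the median error, and errors from solved reads.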

Additional observations from a re-analysis of the deposited data

Results flagged for a closer look

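The effect of double KD was compared with the sum of the effects of the single KDs, and 4 member pairs (1.11%, beside 1.04% of all pairs) departed from it at p 0.01 with the upper-bound error (two-sided Wald test on the authors' deposited APAlog values). None passed an adjusted p of 0.05 over all pairs with that error. The control does not cancel in this comparison.

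The ACTN4 pair lay −0.482 from the sum (p 0.000437, adjusted p 0.205). The CLPB pair 725 nt apart lay 2.63 above the sum (p 0.00361, adjusted p 0.564), the TMEM192 pair 825 nt apart 1.63 above it (p 0.00379, adjusted p 0.573) and the CORO2A pair 3.11 above it (p 0.00789, adjusted p 0.842). With the error from solved reads the adjusted p-values were 0.0127, 0.0921, 0.0815 and 0.287 in the same order. At CORO2A the proximal site had 1.66 reads in PABPC4 KD.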

How the results depend on the processing

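No paired analysis was possible because the deposited tables give 1 value per comparison and none per library; single replicates could not be left out either. Of 52 alternative values, 33 stayed within 1.5 times the reported count, or within the 95% interval of the reported share or median, and 19 moved. These intervals are wide: the share of distal shifts in HNRNPC KD went from 100% to 56.0% at p 0.05, and the share of PABPC4 KD calls that kept their direction from 0% to 33.3%. A Wilson 95% interval of the first share runs from 56.6 to 100% and leaves 56.0% just outside, though that value is counted among the 33. The median logAPAR, which has no test, changed sign in PABPC4 KD with 1 pair per gene (−0.00907 to 0.0189) and in double KD over pairs with an error below the median (−0.0160 to 0.00904). Stricter thresholds and a lower limit on the distance test or pass fewer pairs by construction. Counts of calls in HNRNPC KD, PABPC4 KD and double KD were 3, 0 and 11 at an adjusted p of 0.05, the same at p 0.001, and 1, 0 and 7 with a limit of 500 nt. The median logAPAR in HNRNPC KD moved from −0.0545 to −0.139 with that limit, over 141 pairs, and the cause was not tested. Calls in double KD minus PABPC4 KD, double KD minus HNRNPC KD and the departure from the sum went from 5, 4 and 4 to 12, 7 and 7 with the error from solved reads, to 1, 1 and 0 at an adjusted p of 0.05 and to 2, 2 and 1 with the limit of 500 nt. Taking 1 pair per gene left 13 calls in double KD. Alternatives added after seeing the data were p 0.05 for the shifts followed in another difference, an adjusted p of 0.05 with the error from solved reads (5, 5 and 1 calls), and leaving out METTL2A and METTL2B (3, 2 and 14 calls in the 3 tables). At the median error of the member pairs, a call needed a change in the ratio of the sites of 7.90-fold in HNRNPC KD, 7.77-fold in PABPC4 KD and 7.10-fold in double KD.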
